A study of Mus musculus with 5 samples.

Results

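The Wnt pathway genes of D4m.3a mouse melanoma cells were followed from ligand to nucleus in cells with a constitutively active MNK1 kinase and in vector controls. The set holds every deposited gene symbol of the Wnt, Fzd, Sfrp, Dkk and Tle families together with 21 named genes of Wnt secretion, reception, signal relay and transcription. By this rule 63 of the 46959 deposited genes are members, and 41 of them had enough reads to be tested. The other 22 had at most 25 counts summed over the libraries.

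RNA sequencing compared 2 groups. The reference, pBABE, is D4m.3a carrying the retroviral vector of that name (n = 2 libraries), and caMNK is the same line with constitutive activation of MNK (n = 3). All cells are of C57BL/6 origin and were at passages 7 to 12. As background, D4m.3a cells carry mutant Braf, so both groups have an active ERK pathway upstream of MNK. Whether the caMNK cells came from 1 clone or from a pool is not stated in the labels, so a difference between the lines and an effect of the kinase cannot be told apart. The libraries are called biological replicates without a statement of how cultures were kept apart, so the p-values measure the spread between these libraries, which may be technical.

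Wnt proteins are secreted lipid-modified ligands that bind Frizzled receptors. With the co-receptors LRP5 and LRP6 they stop the destruction complex of AXIN and APC from degrading beta-catenin, which then works with TCF and LEF proteins to switch on target genes, while Groucho (TLE) proteins repress the same sites. A separate branch, driven in many cells by WNT5A through Frizzled and ROR receptors, controls cell polarity and movement without beta-catenin. In melanoma, WNT5A is known for its association with an invasive, poorly pigmented cell state.

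The libraries held 27827199 to 48794336 counts, and the members took 50638 to 83470 of them. Mknk1, which encodes MNK1, measured 15.2 and 16.7 CPM (counts scaled to a common library size) in pBABE and 167, 155 and 168 CPM in caMNK (log2 fold change 3.36, SE 0.104, edgeR adjusted p = 4.81e-06), in keeping with the group names. The labels do not give the species of the introduced MNK1 sequence, so introduced and endogenous Mknk1 transcripts cannot be told apart in this value. The related kinase gene Mknk2 was not called (47.3 and 53.5 CPM on average, edgeR adjusted p = 0.416). Along the second principal component of all tested genes, which held 21.3% of the variance, caMNK replicate 2 (-31.8) stood farthest from caMNK replicate 3 (21.7). Of 10 markers of the pigment lineage, Tyrp1, Dct and Slc45a2 had no count, and Sox10, Tyr, Mlana, Trpm1 and Gpr143 had 2 to 6 counts in all. Pmel had 63 counts in all, and Mitf, the lineage's transcription factor, averaged 5.54 CPM. The summed level of 8 fibroblast markers was 1034 to 1145 CPM in pBABE and 891 to 1232 CPM in caMNK. Of its 6 tested genes 1 was called higher and 1 lower (33.3%, beside 7.94% of all genes tested). The immune list (10 genes) summed to 13.6 to 15.2 CPM in pBABE and 13.6 to 18.6 CPM in caMNK. The endothelial list (8) summed to 5.52 to 9.51 and 3.73 to 4.04 CPM. Most of that was Cdh5, at 4.89 and 8.80 CPM in pBABE and 2.27, 2.47 and 2.81 CPM in caMNK. Cdh5 was called lower, 1 of 3 tested genes of that list (33.3%, beside 7.94% of all genes tested). Pecam1 and Tek, also tested, went the other way, with log2 fold changes of 1.07 (SE 0.553) and 0.82 (SE 0.377), and were not called. The keratinocyte list (8) summed to 3.94 to 4.22 and 5.43 to 5.72 CPM. The 13 mitochondrial mRNAs summed to 12290 to 13533 CPM in pBABE and 18772 to 21665 CPM in caMNK, and 13 nuclear non-coding RNAs to 496 to 511 and 774 to 1067 CPM. Of 10 tested mitochondrial mRNAs 6 were called, all higher (60%), and of 8 tested nuclear non-coding RNAs 5 rose and 1 fell (75%). Over all genes tested 7.94% were called. The part of these lists in the results was not tested.

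A CPM value is a gene's count scaled to the library total after edgeR's TMM normalization. It is given per library or as mean ± SD, and a fold change or log2 fold change is caMNK over pBABE with its standard error (SE). A gene was called when its edgeR quasi-likelihood p, adjusted by Benjamini-Hochberg over all 17026 genes tested, was under 0.05. The counting options are not stated. The deposited lengths equal the gene span, introns included, for 48 of the 63 members, and the gene around a nested opposite-strand gene had at least as many counts in 213 of 220 pairs. Values below that subtract or bound shared reads assume that a read in an overlap was counted for both genes, which the other 7 pairs do not bear out.

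Of the 41 tested members 3 were called. Wnt5a and the secreted antagonist gene Sfrp1 fell, and the co-repressor gene Tle2 rose. That is 7.32% of the tested members, against 7.94% of all genes tested, so the share of calls was near the background. In each direction, 1 member rose against 4.42% of all genes and 2 fell against 3.52%. Over all genes 753 rose and 599 fell, and with scaling by total counts alone 999 rose and 465 fell. The members' median log2 fold change was -0.03, beside -0.0021 for all genes, and 24 of the 41 had a log2 fold change under 0.2 in size. A further 8 members had an unadjusted p under 0.05, which made 11 of 41 (26.8%), beside 25.9% of all genes. The libraries of the groups did not overlap for 23 tested members (56.1%), 9 higher and 14 lower in caMNK, beside 44.9% of all genes. In bulk RNA, fewer cells with a transcript and less transcript per cell cannot be told apart.

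**Figure D1:**
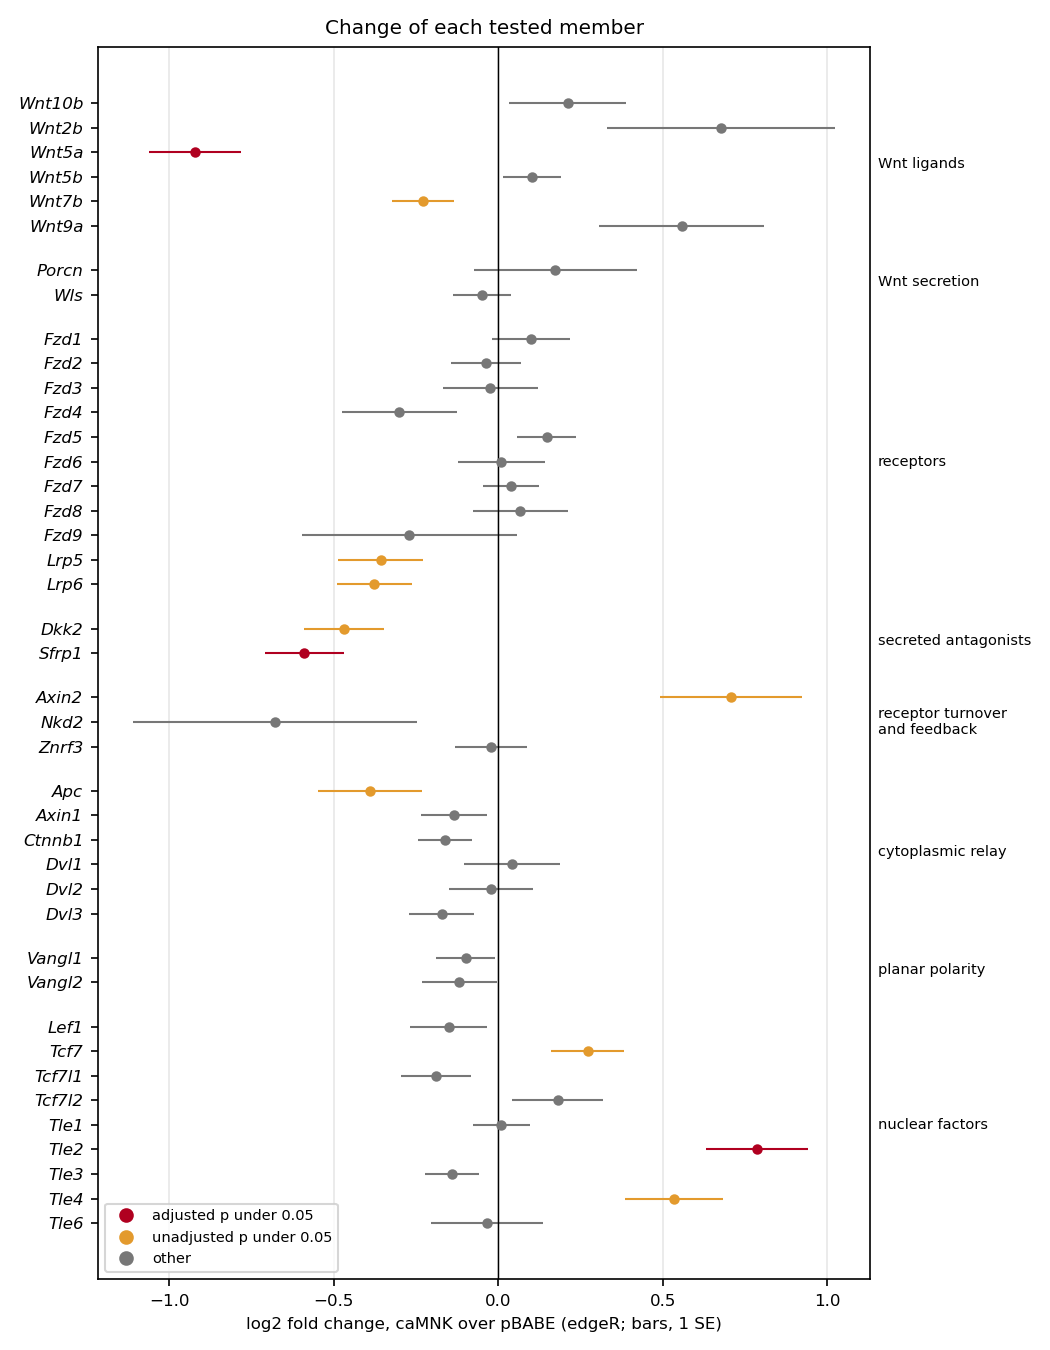
Log2 fold change, caMNK over pBABE, of the 41 tested members by role, with bars of 1 SE from edgeR (n = 2 and 3 libraries). Wnt5a (-0.92) and Sfrp1 (-0.59) lie to the left, Tle2 (0.79) lies to the right, and 24 members lie within 0.2 of 0.

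Among the 19 Wnt ligand genes, 6 were tested: Wnt2b, Wnt5a, Wnt5b, Wnt7b, Wnt9a and Wnt10b. No read was counted for Wnt1, Wnt3, Wnt3a, Wnt7a, Wnt8b or Wnt9b, and a count of 0 over all libraries allows up to 3 counts, or 0.0159 CPM. Wnt2, Wnt4, Wnt6, Wnt8a, Wnt10a, Wnt11 and Wnt16 had 1 to 9 counts in all.

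Wnt5a (chromosome 14, 28504750 to 28527448, plus strand, mm10) stood at 6.69 and 7.16 CPM in pBABE against 3.35, 3.76 and 3.81 CPM in caMNK. Every caMNK library lay below both pBABE libraries, and the gap was wider than the spread within either group. Wnt5a fell 1.89-fold, from 6.93 ± 0.329 to 3.64 ± 0.256 CPM (log2 fold change -0.92, SE 0.139, edgeR adjusted p = 0.00941). It rests on 279 and 231 deposited reads in pBABE, and on 96, 183 and 141 in caMNK. No overlapping gene held 10% or more of its reads.

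Wnt7b, a ligand gene known for signalling through beta-catenin, measured 42.8 and 48.6 CPM in pBABE and 37.8, 40.5 and 38.6 CPM in caMNK. The groups did not overlap, but the difference (log2 fold change -0.23, SE 0.0945) was not called (edgeR adjusted p = 0.170). Wnt9a measured 1.83 ± 0.176 CPM in pBABE and 2.72 ± 0.695 CPM in caMNK (edgeR adjusted p = 0.203). Wnt2b measured 0.384 and 0.837 CPM in pBABE and 0.976, 0.885 and 1.0 CPM in caMNK (edgeR adjusted p = 0.260). Both had higher values in every caMNK library than in pBABE, and the pBABE libraries of Wnt2b were far apart. Wnt10b overlapped between the groups, with 4.39 and 4.68 CPM against 5.75, 4.24 and 5.84 CPM.

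Wnt5b needs its neighbour beside it. As deposited it was the ligand gene with the most reads, 51.7 and 51.5 CPM in pBABE and 52.3, 55.0 and 58.8 CPM in caMNK (log2 fold change 0.10, SE 0.0888, edgeR adjusted p = 0.513). Its span on the minus strand of chromosome 6 (119432531 to 119544347) holds the whole of Fbxl14, an F-box ubiquitin ligase gene on the plus strand. Wnt5b had 2154 and 1662 counts in pBABE and 1501, 2673 and 2177 in caMNK, while Fbxl14 had 2080, 1619, 1449, 2582 and 2093 in the same order. Less the counts of Fbxl14, Wnt5b had 74 and 43 counts in pBABE and 52, 91 and 84 in caMNK, 3.38% of what was deposited. On this net scale it measured 1.78 and 1.33 CPM against 1.81, 1.87 and 2.27 CPM. Every caMNK library lay above both pBABE libraries by a small margin, and the difference was not called (log2 fold change 0.34, SE 0.220, edgeR adjusted p = 0.370).

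**Figure D2:**
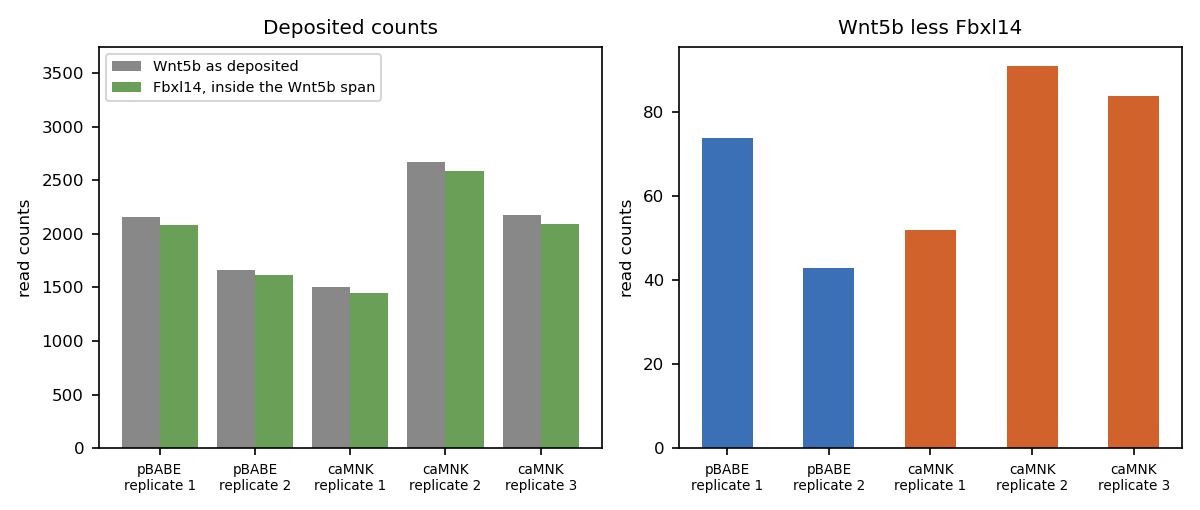
Left, deposited read counts of Wnt5b and of Fbxl14, which lies inside the Wnt5b span, in each library. Right, Wnt5b counts less those of Fbxl14, which came to between 43 and 91 reads a library.

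The subtraction changes the order of the ligands. Per kilobase of summed GENCODE exons, the pBABE means were 19.4 CPM per kb for Wnt5b as deposited and 0.585 for its net counts. On that scale Wnt7b stood at 9.33, Wnt10b at 1.33, Wnt5a at 0.885, Wnt9a at 0.549 and Wnt2b at 0.145 CPM per kb. Wnt7b was then the highest ligand gene in pBABE and, at 7.95 CPM per kb, in caMNK. If intronic reads were counted, genes with much intronic RNA are overstated on this scale, and the place of Wnt5b in this order rests on the assumption about shared reads.

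RefSeq promoter entries (GRCm38.p6) were found for 44 of the 63 members, and of the called genes Tle2 has one. The 250 bases before each start were searched on both strands for CTTTGAA and CTTTGAT, the letters bound by TCF and LEF proteins, and for TGANTCA, the AP-1 site. Matches of the 2 motifs can overlap in the letters TGA. A TCF/LEF match was present in 7.48% and an AP-1 match in 6.75% of all 32851 windows. Among the matched members, Dkk1, Wnt11 and Wnt5b had a TCF/LEF match and Dvl2 and Wnt5b an AP-1 match. The window of Tle2 is shown because it is the called member with an entry, and a pair of the Wnt5b starts is shown, chosen after their letters were seen, because they hold the matches. Capitals mark the matches, and Tle2 has none in this window. The Tle2 window lies inside the GENCODE span of the gene, which begins at 81574561. The RefSeq start used for Tle2 is therefore downstream of the first base of that span. The sequences run 5′ to 3′ on the strand of the gene.
Tle2, plus strand, chr10:81575037-81575286: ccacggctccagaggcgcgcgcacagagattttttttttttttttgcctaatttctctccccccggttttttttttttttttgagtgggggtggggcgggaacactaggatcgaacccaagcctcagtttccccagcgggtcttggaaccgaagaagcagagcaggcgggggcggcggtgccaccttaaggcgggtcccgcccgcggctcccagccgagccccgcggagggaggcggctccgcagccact
Wnt5b, start farthest upstream, minus strand, chr6:119544348-119544597: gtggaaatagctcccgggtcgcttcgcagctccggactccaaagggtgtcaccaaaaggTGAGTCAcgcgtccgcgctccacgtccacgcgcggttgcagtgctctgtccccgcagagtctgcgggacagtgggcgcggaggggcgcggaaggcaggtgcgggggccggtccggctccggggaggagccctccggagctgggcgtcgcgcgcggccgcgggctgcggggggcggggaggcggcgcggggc
Wnt5b, a start further downstream, minus strand, chr6:119449387-119449636: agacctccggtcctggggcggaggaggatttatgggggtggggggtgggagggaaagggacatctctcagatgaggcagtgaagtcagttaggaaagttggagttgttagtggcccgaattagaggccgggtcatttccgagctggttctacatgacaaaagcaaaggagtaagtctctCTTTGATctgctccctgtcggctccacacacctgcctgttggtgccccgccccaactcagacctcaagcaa

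Ligand release needs PORCN, the acyltransferase that attaches the lipid, and WLS, the carrier to the cell surface. Wls measured 141 and 134 CPM in pBABE and 129, 141 and 129 CPM in caMNK, and the groups overlapped (log2 fold change -0.05, SE 0.0873, edgeR adjusted p = 0.776). Porcn was low, at 1.26 ± 0.0784 and 1.41 ± 0.316 CPM (log2 fold change 0.17, SE 0.248).

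No Frizzled receptor gene was called. Of 10, 9 were tested, 0 had an unadjusted p under 0.05, and Fzd10 had no read. Over all genes 7.94% were called and 25.9% had an unadjusted p under 0.05, so 0 calls among 9 is near the background. Fzd7 was the highest, with 74.9 and 78.1 CPM in pBABE and 81.7, 74.7 and 79.7 CPM in caMNK (log2 fold change 0.04, SE 0.0852). Fzd5 measured 31.2 and 30.4 CPM in pBABE and 33.4, 35.5 and 33.4 CPM in caMNK. Its libraries were higher in caMNK without overlap, but the log2 fold change of 0.15 (SE 0.0890) was not called (edgeR adjusted p = 0.340). Log2 fold changes of the other tested Frizzled genes lay between -0.30 for Fzd4 and 0.10 for Fzd1.

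Per kilobase of summed exons, Fzd7 stood at 16.9 CPM per kb in pBABE and 17.4 in caMNK. Next came Fzd5 (4.46 and 4.93) and Fzd2 (4.30 and 4.19), which were close to each other in pBABE, then Fzd1 (2.54 and 2.72) and Fzd6 (2.09 and 2.11). Fzd8 had 1.60 and 1.68, Fzd3 0.815 and 0.803, Fzd4 0.485 and 0.391 and Fzd9 0.303 and 0.251 CPM per kb. On this scale the order of the Frizzled genes was the same in both groups. The summed exons of Fzd8 (5974 bp) exceed its deposited length (3346 bp), as do those of Fzd4 (6720 and 5745 bp). Per kilobase of deposited length, Fzd8 stood at 2.86 CPM per kb in pBABE and 3.00 in caMNK, above the values of Fzd1. On that length Fzd4 (0.567 in pBABE) also stood above Fzd6 (0.316), and Fzd3 (0.170) stood below Fzd9 (0.303). Fzd2 (4.30) and Fzd5 (4.28) changed places in pBABE but not in caMNK (4.19 and 4.74). The places of these genes in the order therefore depend on the length used. At least 59.8% of the reads of Fzd6 are not shared with the opposite-strand gene Gm26704.

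The co-receptor genes were lower in caMNK without passing the test. Lrp6 measured 74.2 and 76.4 CPM in pBABE and 60.2, 64.0 and 49.7 CPM in caMNK (log2 fold change -0.38, SE 0.114, edgeR adjusted p = 0.0794). Lrp5 measured 49.2 and 47.5 CPM in pBABE and 38.3, 31.6 and 43.3 CPM in caMNK (log2 fold change -0.36, SE 0.130, edgeR adjusted p = 0.127). In both genes each caMNK library lay below the pBABE pair, and the caMNK libraries spread more widely than the pBABE libraries. Over the 11 tested receptor genes, Frizzled and co-receptor together, 45.5% did not overlap between the groups. Over all genes tested it was 44.9%, so this share is near the background. Lrp6 was lowest in caMNK replicate 3 and Lrp5 in replicate 2.

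**Figure D3:**
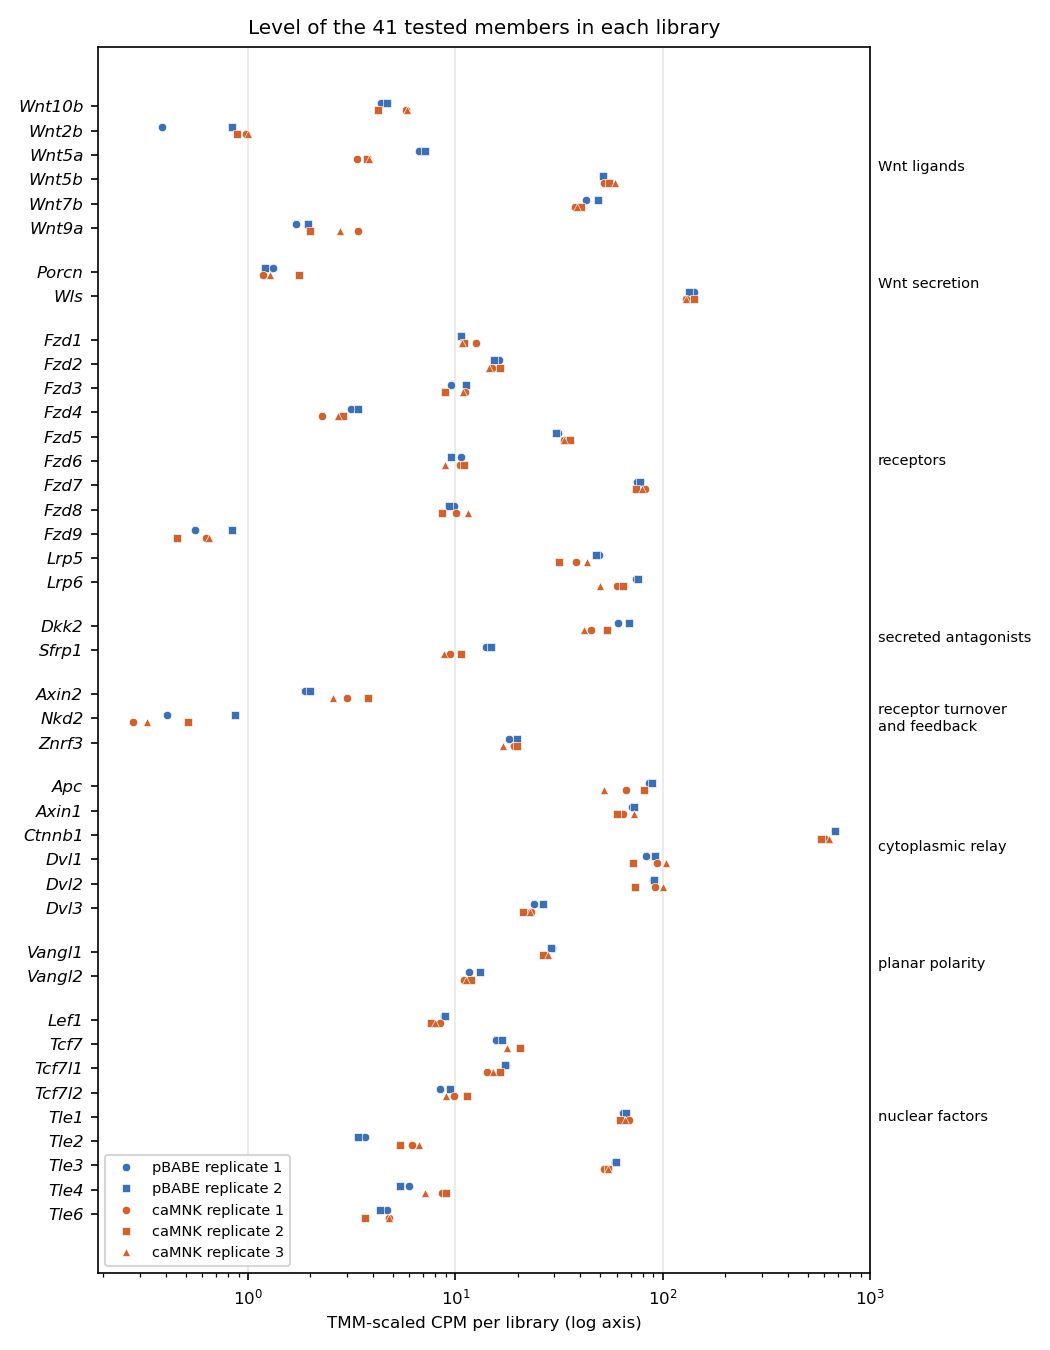
TMM-scaled CPM on a log axis of the 41 tested members in each of the 2 pBABE and 3 caMNK libraries, by role. Ctnnb1 lies between 577 and 678 CPM, most members lie between 1 and 100 CPM, and Wnt5a and Sfrp1 show the caMNK libraries to the left of the pBABE libraries.

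Of the 8 secreted antagonist genes, Sfrp1 and Dkk2 were expressed at levels that could be tested. Sfrp1 was called lower, 1 of 2 (50%, beside 7.94% of all genes tested), and Dkk2 measured lower but was not called. Both had an unadjusted p under 0.05 and no overlap between the groups, beside 25.9% and 44.9% of all genes. A list of 2 genes is too short to set against these shares. SFRP1 binds Wnt proteins and keeps them from their receptors, and DKK2 binds LRP5 and LRP6. Sfrp1 (chromosome 8, 23411502 to 23449632, plus strand) measured 14.1 and 14.9 CPM in pBABE and 9.41, 10.6 and 8.81 CPM in caMNK. Each caMNK library was under both pBABE libraries. Sfrp1 fell 1.5-fold, from 14.5 ± 0.544 to 9.61 ± 0.908 CPM (log2 fold change -0.59, SE 0.120, edgeR adjusted p = 0.0241).

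Dkk2 measured 60.8 and 69.0 CPM in pBABE and 45.04, 53.8 and 41.7 CPM in caMNK, again without overlap. The difference was just short of the threshold with edgeR (log2 fold change -0.47, SE 0.122, adjusted p = 0.0525). By DESeq2, which called 10% of all genes, 5 members were called (12.2%): Wnt5a, Sfrp1 and Tle2, and also Dkk2 (lower) and Tle4 (higher). Dkk1, Dkk3, Dkk4, Sfrp2, Sfrp4 and Sfrp5 had 1 to 25 counts in all. The highest of them was Dkk3, with 25 counts, at 0.0670 ± 0.00706 CPM in pBABE and 0.195 ± 0.116 CPM in caMNK.

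Axin2, Rnf43, Znrf3, Nkd1 and Nkd2 are genes that beta-catenin switches on and whose products damp the pathway. Axin2 measured 1.87 and 1.98 CPM in pBABE and 3.00, 3.81 and 2.57 CPM in caMNK. Every caMNK library was higher, though they ranged widely, and the difference was not called (log2 fold change 0.71, SE 0.216, edgeR adjusted p = 0.0807). Znrf3, a ubiquitin ligase gene that removes Frizzled receptors, measured 18.1 and 19.7 CPM in pBABE and 19.1, 19.7 and 17.0 CPM in caMNK, and the groups overlapped. Nkd2 measured 0.638 ± 0.325 and 0.372 ± 0.125 CPM, Rnf43 had 4 counts in all and Nkd1 none. Of the 3 tested feedback genes, 0 passed the test and 1, Axin2, had an unadjusted p under 0.05, beside 7.94% and 25.9% of all genes, so these counts are near the background.

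The relay and destruction-complex genes gave 0 calls among 6 with edgeR, and 1, Apc, had an unadjusted p under 0.05 (16.7%). Over all genes the shares were 7.94% and 25.9%, so these counts are near the background. Ctnnb1, which encodes beta-catenin, was the member with the most reads, 675 and 678 CPM in pBABE and 606, 577 and 631 CPM in caMNK. Its caMNK libraries lay below the pBABE libraries by about as much as they spread among themselves (log2 fold change -0.16, SE 0.0827, edgeR adjusted p = 0.258). Ctnnb1 overlaps Ulk4 by 5157 bp on the opposite strand, and at least 88.7% of its reads are not shared with Ulk4. Apc, the scaffold gene of the destruction complex, measured 85.8 and 89.0 CPM in pBABE and 66.8, 80.8 and 52.2 CPM in caMNK (log2 fold change -0.39, SE 0.159, edgeR adjusted p = 0.166). Among caMNK libraries the spread of Apc was wide, from 52.2 CPM in replicate 3 to 80.8 CPM in replicate 2.

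Axin1, the other scaffold gene, measured 72.2 ± 1.07 and 65.8 ± 6.44 CPM. The Dishevelled genes carry the signal from Frizzled to AXIN. Dvl1 measured 82.7 and 91.4 CPM in pBABE and 93.7, 71.8 and 103 CPM in caMNK, and Dvl3 25.3 ± 1.79 and 22.4 ± 1.05 CPM. At least 84.2% of the reads of Dvl3 lie outside its neighbour Gm16618. Dvl2 measured 89.8 and 90.3 CPM in pBABE and 92.1, 73.7 and 100 CPM in caMNK (log2 fold change -0.02, SE 0.128). In Dvl1 and Dvl2 alike, caMNK replicate 2 was the lowest library and caMNK replicate 3 the highest. Dvl2 overlaps the mitochondrial acyl-CoA dehydrogenase gene Acadvl by 2119 bp on the opposite strand, and as few as 13.9% of its reads may be its own. The planar polarity genes encode proteins that take part in cell polarity. Vangl1 measured 29.1 ± 0.268 and 27.2 ± 0.783 CPM and Vangl2 12.4 ± 1.12 and 11.4 ± 0.496 CPM. Their edgeR adjusted p-values were 0.533 and 0.563.

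The 9 nuclear genes were all tested, and the call among them was Tle2 (11.1%, beside 7.94% of all genes tested). An unadjusted p under 0.05 was found for 3 of the 9 (33.3%, beside 25.9%), so these counts are near the background. TLE proteins have no DNA-binding domain and repress where TCF and LEF hold them. Tle2 (chromosome 10, 81574561 to 81590845, plus strand) measured 3.67 and 3.38 CPM in pBABE and 6.20, 5.43 and 6.67 CPM in caMNK. All caMNK libraries were above both pBABE libraries. From 3.52 ± 0.207 to 6.10 ± 0.628 CPM, Tle2 rose 1.72-fold in the fit (log2 fold change 0.79, SE 0.155, edgeR adjusted p = 0.0213). It overlaps Gm15917 on the opposite strand, and at least 89.6% of its reads are its own. The neighbouring Tle6, which reads toward Tle2 from the other strand, measured 4.48 ± 0.245 and 4.41 ± 0.645 CPM.

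Tle4 measured 5.97 and 5.42 CPM in pBABE and 8.64, 9.01 and 7.11 CPM in caMNK, without overlap (log2 fold change 0.53, SE 0.149, edgeR adjusted p = 0.0643). Family members with more reads differed less. Tle1 measured 64.1 and 66.3 CPM in pBABE and 68.9, 62.3 and 65.8 CPM in caMNK, and Tle3 58.6 and 59.8 CPM against 52.1, 54.5 and 54.5 CPM. The log2 fold changes were 0.01 (SE 0.0862) for Tle1 and -0.14 (SE 0.0816) for Tle3, and neither was called. Per kilobase of summed exons, Tle1 (7.48 CPM per kb) and Tle3 (5.08) stood above Tle6 (1.45), Tle4 (0.999) and Tle2 (0.566) in pBABE.

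The DNA-binding partners of beta-catenin gave no call, which for so few genes is near the 7.94% called of all genes. Tcf7 measured 15.7 and 16.9 CPM in pBABE and 20.6, 20.6 and 17.8 CPM in caMNK (log2 fold change 0.27, SE 0.111, edgeR adjusted p = 0.168). Its span shares 17144 bp with the non-coding gene Gm26551 on the same strand, so the reads in common cannot be assigned to either. Gm26551 had 122081 counts against 3450 for Tcf7, so as few as 0% of the Tcf7 reads may be its own. Tcf7 also overlaps A630014C17Rik by 6960 bp on the opposite strand. Lef1, with at least 67.1% of its reads outside the antisense gene Gm43352, measured 8.88 ± 0.0684 and 8.01 ± 0.384 CPM and Tcf7l2 8.95 ± 0.712 and 10.1 ± 1.18 CPM. Tcf7l1 measured 17.4 ± 0.173 and 15.2 ± 1.05 CPM as deposited. Less the counts of the antisense gene Gm15401 inside it, it measured 10.3 ± 0.683 and 8.98 ± 0.597 CPM (log2 fold change -0.19, SE 0.121, edgeR adjusted p = 0.368).

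**Figure D4:**
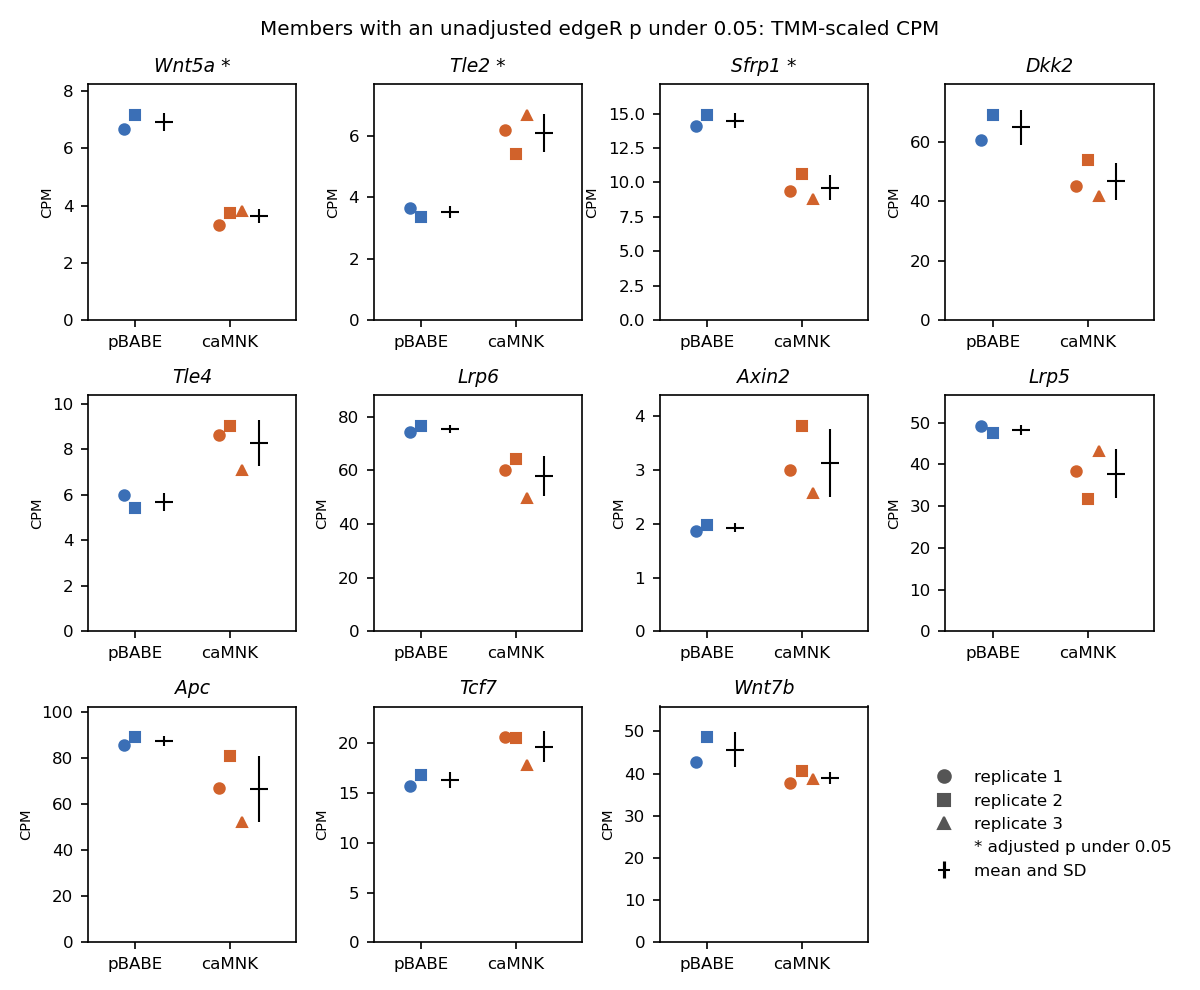
TMM-scaled CPM, from 0, of the 11 members with an unadjusted edgeR p under 0.05, with each library as a point and the mean and SD beside it (n = 2 pBABE, n = 3 caMNK). In all 11 the points of the groups do not overlap, and the asterisks mark Wnt5a, Sfrp1 and Tle2. The 11 were chosen by p from these same libraries, so the lack of overlap is not separate support. Over all tested genes, 44.9% did not overlap.

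The calls turned on single libraries. Without caMNK replicate 2, 10 of 41 tested members were called (24.4%) in a fit that called 29.6% of all genes: Wnt5a, Wnt7b, Lrp5, Lrp6, Dkk2, Sfrp1 and Apc were lower and Wnt9a, Tle2 and Tle4 higher. Without caMNK replicate 3, 6 were called (14.6%, beside 10.2% of all genes), with Axin2, Tle2 and Tle4 higher and Wnt5a, Lrp5 and Sfrp1 lower. Without pBABE replicate 1, pBABE replicate 2 or caMNK replicate 1, 0 members were called, where 0.132%, 0.31% and 1.51% of all genes were. With 1 pBABE library left, that library is assumed to vary like the caMNK libraries. The adjusted p of Wnt5a rose to 0.127, 0.108 and 0.0541 in these edgeR fits, that of Sfrp1 to 0.192, 0.209 and 0.107, and that of Tle2 to 0.194, 0.204 and 0.0900. The log2 fold change of Wnt5a stayed between -0.98 and -0.87, that of Sfrp1 between -0.67 and -0.53 and that of Tle2 between 0.72 and 0.87 when each library was left out.

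**Figure D5:**
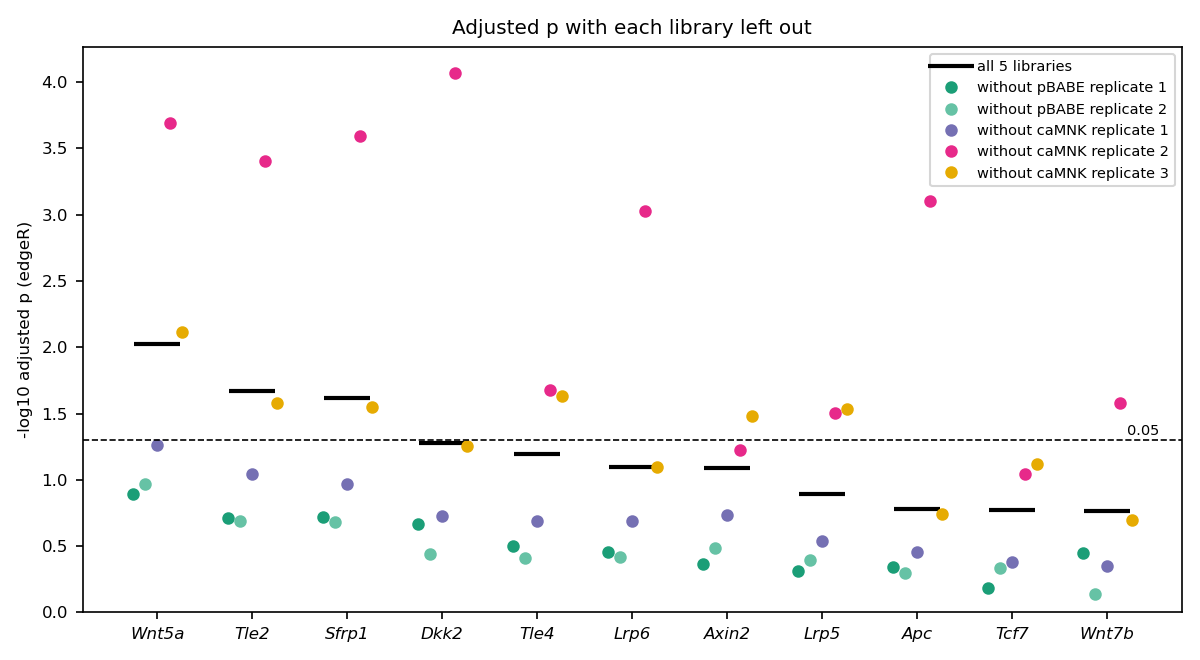
The -log10 of the edgeR adjusted p of the same 11 members with all 5 libraries (bars) and with each library left out (points), and a dashed line at 0.05. Points without caMNK replicate 2 lie highest in 8 of the 11 members, and those without a pBABE library or without caMNK replicate 1 lie below the line in all 11.

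Genes around the members were counted from 3 lists. Of 43 tested further components of the beta-catenin branch, 1 fell and 0 rose (2.33%, median log2 fold change -0.08), beside 7.94% called of all genes and 3.52% lower. It was Bcl9l, which encodes a co-activator that binds beta-catenin, at 93.0 and 97.1 CPM in pBABE and 71.2, 76.4 and 72.4 CPM in caMNK (log2 fold change -0.37, SE 0.0826, edgeR adjusted p = 0.0314). Among kinase genes of the destruction complex, Gsk3a, Gsk3b and Csnk1a1, were tested and not called.

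Of 29 tested components of the branch without beta-catenin, 2 rose and 1 fell (10.3%, median -0.08), a share near the 7.94% of all genes. Camk2b, a subunit of a calcium-activated kinase, rose and stood at 5.15 ± 0.163 CPM in pBABE and 12.7 ± 1.66 CPM in caMNK (log2 fold change 1.30, SE 0.149, edgeR adjusted p = 0.00504). Ptk7, a Wnt co-receptor of planar polarity, rose from 2.47 ± 0.244 to 5.23 ± 0.602 CPM (log2 fold change 1.07, edgeR adjusted p = 0.0116). Ptk7 overlaps Gm26904, which had at least 10% as many counts. Their reads were not separated, so the part of this rise that belongs to Ptk7 is not known. The polarity cadherin gene Celsr2 fell, with 1.94 and 2.45 CPM in pBABE and 1.011, 1.07 and 0.919 CPM in caMNK (log2 fold change -1.12, edgeR adjusted p = 0.0189). Of the further receptor genes for WNT5A, Ror2 and Ryk were tested and not called, and Ror1 had 21 counts in all and was not tested.

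Of 23 tested beta-catenin target genes outside the members, 3 rose and 1 fell (17.4%, beside 7.94% of all genes; median 0.09). In each direction the shares over all genes were 4.42% and 3.52%, and the list was chosen with earlier results of these data known. The neural adhesion gene Nrcam had 5.25 and 7.41 CPM in pBABE and 24.5, 17.5 and 22.8 CPM in caMNK, and the differentiation inhibitor gene Id2 3.81 and 3.47 CPM against 12.0, 7.71 and 9.84 CPM. Their log2 fold changes were 1.77 (SE 0.196) and 1.42 (SE 0.202), with edgeR adjusted p-values of 0.00470 and 0.00827. Myc rose from 46.8 ± 1.29 to 61.0 ± 4.11 CPM (log2 fold change 0.38, edgeR adjusted p = 0.0417), and the ephrin receptor gene Ephb2 fell from 7.49 ± 0.947 to 4.41 ± 0.366 CPM (log2 fold change -0.77, edgeR adjusted p = 0.0193). Ccnd1 and Cd44, 2 widely cited targets, had log2 fold changes of -0.08 and 0.09 and were not called. All of these genes also have other regulators.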

How the data were processed

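Total RNA was made into libraries with a stranded total RNA kit, per the labels' protocols. The submitters' processing notes list mm10 and, without order, featureCounts 1.5.3, STAR 2.5.3, DESeq2, Trimmomatic 0.32, SAMtools 0.1.19 and FastQC 0.11.2. Neither the annotation release nor the counting options is given in those notes. The authors deposited raw read counts per gene with a gene length. Of the 63 members, 48 have a deposited length equal to their GENCODE M21 span, introns included. Of 220 protein-coding genes of 1000 or more counts nested in a gene on the other strand, the gene around it had at least as many counts in 213.

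From the deposited counts, edgeR 4.0.16 (R 4.3.3) was run across all genes on all 5 libraries with group as the term. The steps were filterByExpr, TMM scaling and the robust quasi-likelihood test, checked on simulated data. The simulation gave both groups the same spread for each gene, so it does not cover unequal spread or a deviant library. The SE was taken from the log2 fold change and the F statistic of the test. Groups came from sample titles. Members and lists were chosen with earlier results of these data known. Full values are given for members with an adjusted or unadjusted p under 0.05, the 2 members of each role with the highest mean CPM, up to 6 called genes of each further list and Mknk1; other members and genes named by value were added after their values were seen. Alternatives were other scalings, DESeq2 1.42.0, limma-voom 3.58.1, other filters, genes sharing reads left out, a replicate block and each library left out. Subtraction of nested genes was added after seeing the data.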

Additional observations from a re-analysis of the deposited data

How the results depend on the processing

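Members called higher and lower in caMNK numbered 1 and 2. Higher calls numbered 2 with total-count scaling and with DESeq2, 3 with no low-count filter and 0 when genes that share reads are left out, which drops Tle2. Lower calls numbered 6 without a filter. Without a filter, calls were 9 of 52 further components, 7 of 32 genes of the branch without beta-catenin and 9 of 34 target genes. With DESeq2, 2 of the further components were called. Calls over all genes, 1352 of 17026 tested, were 2921 of 27978 without a filter and 717 of 10638 without genes that share reads. Members called were 16.4% of 55 tested without a filter, beside 10.4% of all genes. With genes that share reads left out, they were 6.25% of 32 tested, beside 6.74% of all genes. With total-count scaling, 9.76% of tested members were called, beside 8.6% of all genes. With each library left out, members called higher ranged from 0 to 3 and lower from 0 to 7. The further components ranged from 0 to 18, the branch without beta-catenin from 0 to 12, the target genes from 0 to 11 and all genes from 23 to 4942. The cause of these shifts was not tested.

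A fit with the replicate number as a replicate block called 3 members higher and 4 lower (17.1%, beside 15.9% of all genes). It called 4, 5 and 7 genes of the lists and 2708 genes in all. The deviations of libraries with the same number from their group means had correlations of -0.05 and -0.03. In pBABE these deviations mirror each other, because the group mean lies midway between its libraries. The correlations are therefore not separate checks, and they cannot decide whether the numbers pair the libraries. In the fit with a replicate block caMNK replicate 3 has a level of its own and adds nothing.

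Each called member kept its direction in each alternative that tested it, 15 for Wnt5a and Sfrp1 and 14 for Tle2. Small log2 fold changes changed sign in uncalled members: Wls (0.00493), Znrf3 (0.0319) and Dvl2 (0.0330) with total-count scaling, which moves the median of all genes by 0.05, and Znrf3 with the replicate block (0.0392). With a library left out, Porcn ranged from -0.0436 to 0.276, Fzd7 from -0.00125 to 0.0757, Znrf3 from -0.0959 to 0.0429, Dvl2 from -0.12 to 0.0942 and Tle1 from -0.0265 to 0.0449. The 22 untested members had at most 25 counts in all, and differences in them were not detectable at this depth.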
